A study of Xenopus tropicalis with 3 samples.

Results

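At stage 65 of Xenopus tropicalis metamorphosis, 13161 ATAC-seq peaks of the urostyle were of moderate height, narrow, and deep inside protein-coding genes. They were chosen by 3 measured properties from the deposited stage 65 peak list: a fold (summit signal over background) from 4 to below 8, a width under 1500 bp, and a summit inside a protein-coding gene span and over 10 kb from every protein-coding gene end. Only chromosomes 1 to 10 were used, without the outer 3 Mb at each chromosome end. The chosen peaks, called members, made up 4.22% of the 311625 stage 65 peaks and 24.8% of the 53042 peaks of that fold and width on chromosomes 1 to 10. Fold, width and position chose the members, so these are described with no test.

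The study followed the urostyle through metamorphic climax, and its 3 deposited peak lists, 1 library each, hold 322995 peaks. Stage 56 had 4564 peaks and stage 61 had 6806, in lists made in another way, so no comparison between stages was made. The stage 65 library came from urostyle of dissected tadpoles, homogenised by pestle before Omni-ATAC per the labels, whereas the series' design text speaks of laser capture. No genotype, strain, sex or animal number is given in the labels, and with 1 library there is no replicate error. The intervals given are exact Poisson or Clopper-Pearson 95% intervals that cover counting error only. The tissue label could not be checked against expression in these data.

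The urostyle is the fused caudal rod of the frog skeleton, built partly by ossification of cartilage under the notochord while the tail regresses under thyroid hormone. ATAC-seq marks DNA that a transposase can reach, which in many genomes includes promoters at gene starts and enhancers that often lie in long introns. A peak inside a gene may act on that gene, on a distant gene, or on none, so a gene that holds a member is named here as its location.

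Members were modest peaks. Their fold ran from 4.04 to 7.94 with a median of 4.64 (interquartile range 4.19 to 5.24), and 88.8% (88.2 to 89.3) had a fold below 6. The folds rise in steps of 0.150, which places 26 to 52 units of stacked signal at the summit. Their median was 30, over a genome-wide background of 5.68. The peak settings that define this unit are not given, so fragment is used here as a name for it. Counting intervals on it take each unit as 1 independent count. A single fragment more or less therefore moves a peak by 1 step, and the 2095 members at the lowest step of 4.04 had 26 fragments each. Outside the limits but otherwise alike, 2572 peaks lay 1 step lower at 3.89 and 53 lay 1 step above the highest members at 8.09, where the last step inside held 65. Width ran from 278 to 1499 bp with a median of 751 bp, with 251 members in the last 50 bp under the limit and 233 like peaks in the first 50 bp from it. Between 9 and 10 kb from a gene end 690 like peaks lay inside genes, against 590 members between 10 and 11 kb. In all, the members covered 10.4 Mb.

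Most members were not isolated in the genome. Another peak of any size lay within 1 kb of 46.0% (45.2 to 46.9) of them, and the median gap to the next peak was 1112 bp. No other peak lay within 5 kb of only 8.18% (7.71 to 8.66). Members are therefore focal in their own width, not in their surroundings. Like peaks far from genes, meaning outside every coding span and over 10 kb from every coding gene end, had nearly the same spacing, with 8.74% (8.30 to 9.19) free of a neighbour within 5 kb. At gene ends, within 1 kb of an annotated start or finish, the share was lower at 5.24% (4.63 to 5.89).

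The depths of genes carried these peaks at close to the density of the space between genes. Members numbered 31.6 per Mb (31.1 to 32.2) over 416.4 Mb of deep territory, the part of coding spans over 10 kb from every coding gene end. Like peaks far from genes numbered 32.6 per Mb (32.1 to 33.1), so the ratio was 0.971 (0.948 to 0.993). Gene ends were denser in like peaks, at 65.7 per Mb (63.9 to 67.5), and the deep density was 0.481 (0.466 to 0.497) of that. The order differed for taller peaks, counted at any width. Those of fold 8 to 15 numbered 6.88 per Mb deep inside genes, 8.44 far from genes and 7.18 at gene ends. In that order, the 95% intervals were 2.84 to 3.17, 4.72 to 5.12 and 1.45 to 2.06 per Mb for fold 15 and over. Below a fold of 3, gene ends were again densest, with 88.2, 78.8 and 94.5 per Mb. Within genes, the density of members was lower at greater depth, up to 200 kb. It was 34.0 per Mb (33.0 to 35.0) at 10 to 20 kb from the nearest gene end and 31.3 at 20 to 50 kb. Further in it was 30.2 at 50 to 100 kb, 28.7 (27.0 to 30.4) at 100 to 200 kb and 29.7 (27.2 to 32.4) beyond 200 kb.

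Position along the chromosome went with a wider range of density than position inside the gene. At 3 to 5 Mb from the nearer chromosome end, members numbered 77.2 per Mb (71.7 to 83.0), and at 70 to 120 Mb they numbered 21.6 (20.4 to 22.8), a ratio of 3.58. Between these, the density was 71.9 per Mb at 5 to 10 Mb, 51.4 at 10 to 20 Mb, 27.4 at 20 to 40 Mb and 22.2 at 40 to 70 Mb. The outer 3 to 20 Mb thus held 5393 members, or 41.0%, on 21.7% of the deep territory. At all 20 chromosome ends this outer zone was denser than the inner part of the same chromosome, by 1.59 to 3.05 times. Chromosome 10, the shortest at 52.4 Mb, had the highest density at 58.8 per Mb, and chromosome 3 the lowest at 27.1.

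Like peaks elsewhere showed the same order with a smaller range. The ratio of outermost to innermost density was 2.55 far from genes and 1.47 at gene ends. As a result, deep territory was denser than the space between genes near chromosome ends and sparser further in: the ratio was 1.33 at both 3 to 5 and 5 to 10 Mb, 1.04 at 10 to 20 Mb, 0.837 at 20 to 40 Mb and 0.944 at 70 to 120 Mb. Against gene ends the deep density was 0.950 at 3 to 5 Mb and 0.368 at 40 to 70 Mb.

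Other classes of deep peak had other ratios. For deep peaks with a fold below 3 the outermost and innermost bins were alike, with a ratio of 1.07, but the density was not level between them: it was 79.3 per Mb at 3 to 5 Mb, 108 at 10 to 20 Mb and 74.1 at 70 to 120 Mb. Those of fold 3 to 4 had a ratio of 1.53. Peaks of the members' fold but 1500 bp or wider had 10.3, and those of fold 8 and over had 39.4, from 65.0 per Mb at 3 to 5 Mb to 1.65 at 70 to 120 Mb. Members were also wider near chromosome ends, with a median of 943 bp against 690 bp innermost. Whether read coverage, GC content or gene density moves with this pattern was not tested.

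**Figure D1:**
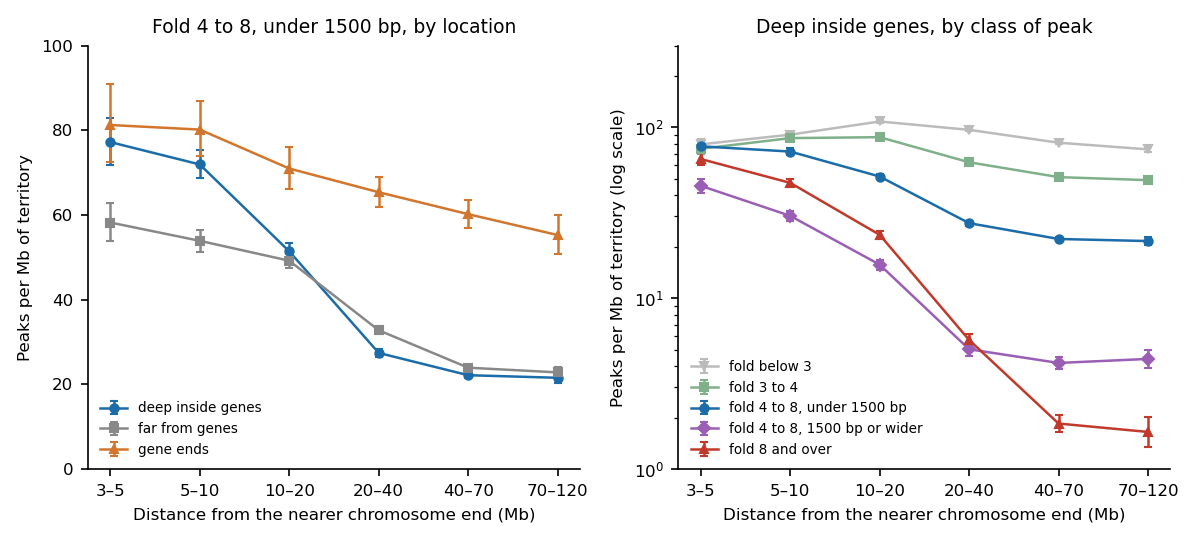
Peaks per Mb of territory (y axis; log scale on the right) in 6 bins of distance from the nearer chromosome end (x axis, Mb), with exact Poisson 95% intervals as bars. Left, peaks of fold 4 to 8 and under 1500 bp deep inside genes (the members), far from genes and at gene ends; right, 5 classes of peak deep inside genes. From the outermost to the innermost bin, members number 77.2 and 21.6 per Mb, gene ends 81.2 and 55.3, and deep peaks of fold 8 and over 65.0 and 1.65.

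Members were spread over many genes. Of 8507 protein-coding genes with any deep territory, 4303 held at least 1 member, which is 50.6% (49.5 to 51.6). A single member was held by 1843 genes, at least 5 by 738 (8.68%), at least 10 by 197 and at least 20 by 45. Among the 2348 genes with 50 kb or more of deep territory, 2059 held a member (87.7%). The share was higher where territory was longer, at 13.5% of genes with under 10 kb, 64.0% at 25 to 50 kb, 92.2% at 100 to 200 kb, and 85 of 85 genes with 400 kb or more. Across the 8507 genes, members and territory had a Spearman correlation of 0.677, a description across genes of 1 library. The number of members in a gene moved with its length, so density per 10 kb of deep territory is given beside it. Over all deep territory that density was 0.316 per 10 kb. Density was lower further from the chromosome end, with a Spearman correlation of -0.438 across the 2348 genes with 50 kb or more.

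**Figure D2:**
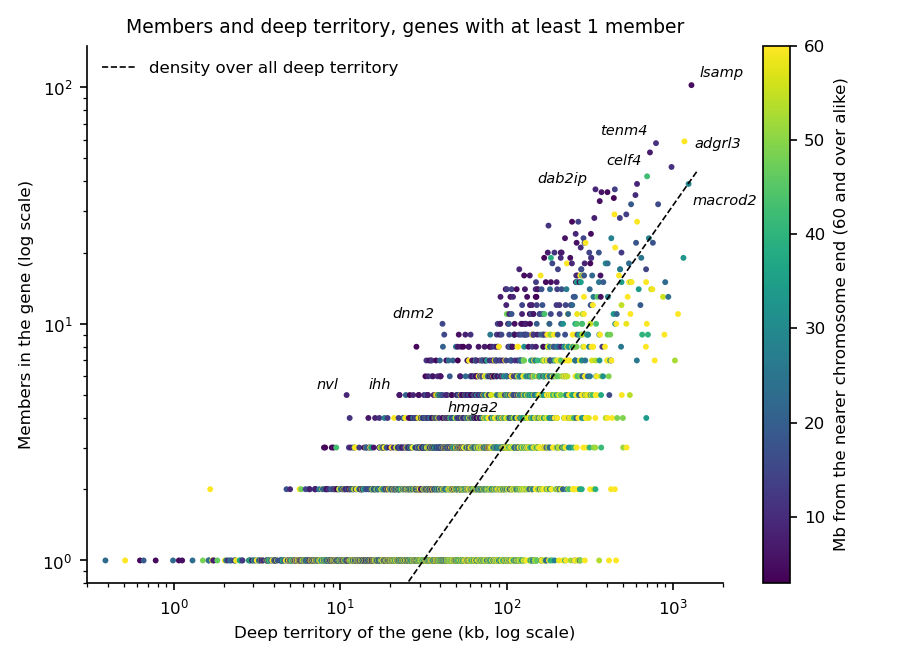
Members per gene (y axis, log scale) against deep territory per gene (x axis, kb, log scale) for the 4303 genes with a member, coloured by distance from the nearer chromosome end in Mb. The dashed line is the density over all deep territory, 0.316 per 10 kb. The long gene lsamp, with 102 members and near a chromosome end, lies above the line. So does adgrl3, with 59 members and 90.3 Mb from an end, and so do the labelled short genes nvl, dnm2 and ihh.

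The genes with most members were very long genes, several known from neurons. First was lsamp, which encodes a limbic system cell adhesion protein of the IgLON family, with 102 members in 1293 kb of deep territory (0.789 per 10 kb). Next came adgrl3, a latrophilin adhesion receptor, with 59 (0.503 per 10 kb), tenm4, a teneurin, with 58 (0.733), celf4, an RNA-binding protein, with 53 (0.728) and ctnna2, the neuronal alpha-catenin, with 46 (0.469). Further down were the synaptic adhesion gene lrrc4c and the ADP-ribose hydrolase gene macrod2 with 39 each (0.641 and 0.314), and the Ras GTPase-activating gene dab2ip and the cGMP-dependent kinase gene prkg1 with 37 each (1.08 and 0.827). LOC116407773 and atrnl1 had 36 each (0.967 and 0.891), the synaptic scaffold gene dlg2 had 35 (0.588), the calcium channel subunit gene cacna2d3 had 34 (0.770), and nell1, whose secreted product promotes bone formation in mammals, had 33 (0.909). The 15 genes together held 5.17% of all pairings of a member with a gene on 2.50% of the deep territory. They were picked for their number of members, so a share above that of the territory follows partly from the pick. Of the 36 members of LOC116407773, 32 also lay inside other annotated genes, 23 of them in tns1, which encodes the focal adhesion protein tensin.

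These long genes also lay where peaks were dense. The midpoints of 9 of the 15 lay within 10 Mb of a chromosome end and of 12 within 20 Mb, while genes that close held 8.42% and 21.9% of the deep territory. Of all genes with at least 5 members, 46.6% lay within 20 Mb. Surroundings here are like peaks over 10 kb from gene ends within 1 Mb to each side. The density of the 15 genes was 0.732 to 2.02 times that of their surroundings, and 10 of 15 exceeded 1. The median of these ratios was 1.16, against 1.25 over the 737 genes with at least 5 members. Of the 15, the highest ratio was at prkg1 (2.02), and the lowest ratios were at ctnna2 (0.732), macrod2 (0.790) and dlg2 (0.853). Over 20 Mb from any chromosome end lay, among others, adgrl3 at 90.3 Mb and macrod2 at 28.9 Mb.

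Inside each of these genes the members were scattered along the span. In lsamp the median step between neighbouring summits was 7.77 kb, the largest gap was 91.9 kb, and the fullest 100 kb held 16 members. In macrod2 the median step was 28.4 kb and the fullest 100 kb held 7, while in dab2ip, at 6.91 kb, it held 17. In lsamp 3 members shared the highest fold, 7.64 from 50 fragments (37.1 to 65.9), the first of them at 4430520 to 4431429 on chromosome 2. In tenm4 also 3 members shared the highest fold, 7.94 from 52 fragments (38.8 to 68.2), the first at 169523084 to 169524277 on chromosome 2, 327 kb from the nearest gene end. The highest member of nell1 lay at 4809099 to 4810277 on chromosome 4 with a fold of 7.64. Among the 15 genes the highest fold of a member ran from 6.59 in adgrl3 to 7.94 in tenm4, lrrc4c, atrnl1 and LOC116407773, whose counting intervals overlap. Members end below a fold of 8, so 7.94 is the last step allowed. Any higher peaks of these genes are left out of this comparison. Peaks of any size covered 11.9% of the deep territory of macrod2 and 53.1% of that of dab2ip, against a median of 20.4% over the 738 genes with at least 5 members.

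**Figure D3:**
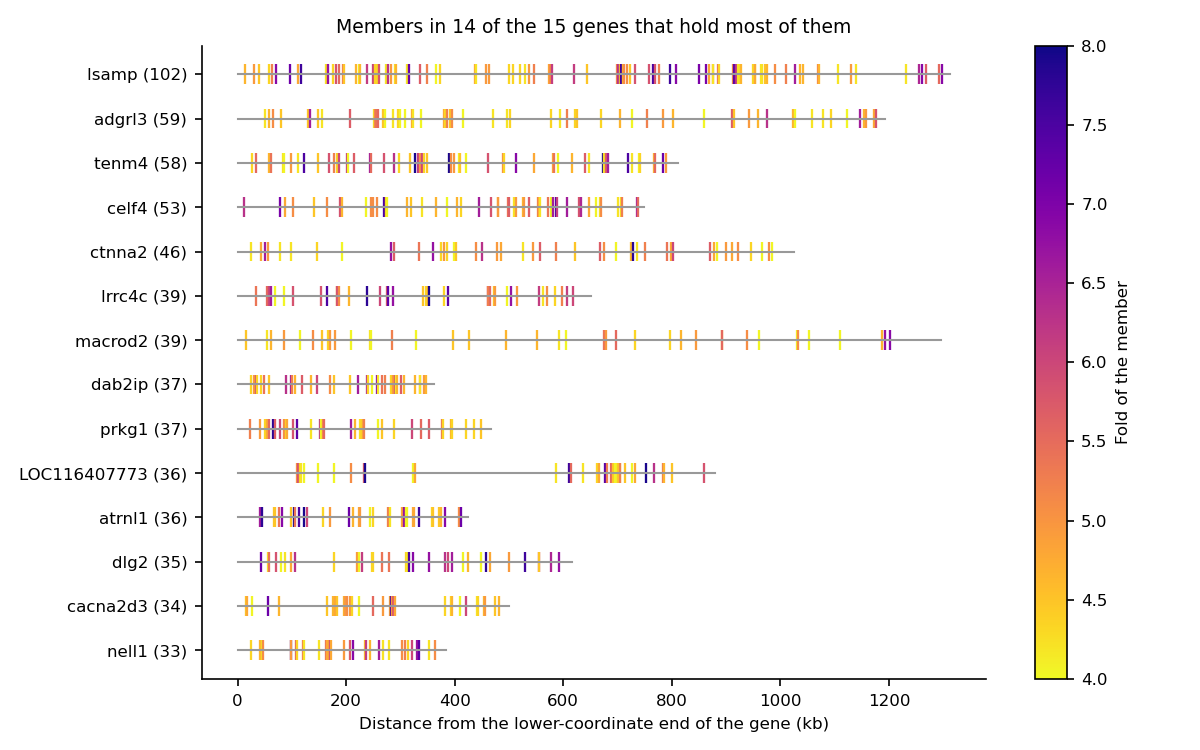
Members in 14 of the 15 genes that hold most of them, as ticks along each gene (x axis, kb from the end with the lower coordinate), coloured by fold from 4 to 8; the number of members stands beside each name. Members are scattered along whole spans, as in lsamp with 102, while LOC116407773 has a gap of 260 kb. Only 372 kb of the 880 kb span of LOC116407773 is deep territory, so the rest could hold no member.

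Ranked by density instead, none of those 15 genes stayed among the first 15. The densest gene with at least 5 members was nvl, an AAA ATPase gene of ribosome assembly, with 5 members in 10.9 kb of deep territory (4.57 per 10 kb). That territory is short, and per 10 kb of whole gene span nvl had 1.62, LOC100490503 1.64 and dnm2 1.63. LOC100490503 followed with 8 members (2.78 per 10 kb), then dnm2, which encodes the endocytic GTPase dynamin, with 10 in 41.2 kb (2.43) and ihh with 5 in 22.7 kb (2.21). The remaining 11 ran from 2.20 to 1.84 per 10 kb: myo10.2 (an unconventional myosin), kcnt2l, pnoc (the nociceptin precursor), MGC86483, LOC100497829, ano5 (an anoctamin membrane protein whose human gene is mutated in a skeletal dysplasia), als2cl, LOC101730485, bicd2 (a dynein adaptor), prmt3 (an arginine methyltransferase) and lmo1 (a LIM-only transcription cofactor). All 5 members of myo10.2 also lay inside LOC116407773. Of these genes 9 lay within 10 Mb of a chromosome end and 13 within 20 Mb, where 46.6% of all genes with at least 5 members lay. Their density was 2.22 to 6.36 times that of their surroundings, with a median of 3.16. They were picked as the densest, so a density above the surroundings follows largely from the pick. Peaks of any size covered 24.4% to 86.5% of their deep territory. In LOC101730485, at 86.5%, the 8 members stood in nearly continuous signal.

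Indian hedgehog, encoded by ihh, is secreted by prehypertrophic chondrocytes and paces endochondral ossification. Its 5 members lay on chromosome 9 at 82945068 to 82945456 (fold 4.19, 27 fragments), 82950952 to 82952137 (7.19, 47 fragments), 82955860 to 82956358 (5.54, 36 fragments), 82956795 to 82958111 (7.94, 52 fragments) and 82964221 to 82965663 (4.79, 31 fragments). Those at 82950952 and 82956795 were the highest, and the latter sits at the upper limit of the fold that defines a member. Peaks of any size covered 49.8% of the gene's deep territory, and its midpoint lay 8.26 Mb from the chromosome end. The density was 3.19 times that of the surroundings, which held 0.691 like peaks per 10 kb. That ratio rests on 5 members, the least that the density ranking allowed, and the gene was picked for its density.

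In dnm2, 8 of the 10 members formed a run from 138770483 to 138792532 on chromosome 3, with folds from 4.34 to 7.64. A further member at 138803490 to 138804945, with a fold of 6.89 from 45 fragments, had its summit within 1 kb of an end of mir199b, a microRNA gene that lies inside dnm2. In nvl the 5 members lay between 8870486 and 8880235 on chromosome 5 with folds from 4.19 to 6.29.

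The genes with the highest ratios to their surroundings were mostly others, and these were chosen after their values were seen. Ranked by the ratio to surroundings among 737 genes with at least 5 members, 13 of the first 15 lay over 20 Mb from a chromosome end and 3 were shared with the density ranking. The median ratio over the 737 genes was 1.25, and 122 exceeded 2. A short gene reaches 5 members only if it is dense, so this limit favours high ratios. The first were cmahp with 7 members and a ratio of 10.8, the meiotic recombination gene msh4 with 5 and 8.90, LOC108647609 with 7 and 8.06, LOC100490503 with 8 and 6.36, and hmga2 with 5 and 6.18. Each ratio named here rests on 5 to 8 members. The surroundings of cmahp held 0.0762 like peaks per 10 kb, so a few peaks set its ratio. After these came camsap3, which encodes a microtubule minus-end protein, with 7 and 6.04, the phospholipase gene pld1 with 5 and 5.86, map4k5 with 5 and 5.62, the tetraspanin gene tspan5 with 5 and 5.51 and the endocytic adaptor gene hip1 with 5 and 5.37.

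The gene hmga2 encodes an architectural chromatin protein linked in mammals to body size, and its midpoint lay 57.5 Mb from a chromosome end. Its members lay on chromosome 3 at 57461664 to 57462624 (fold 5.24), 57465982 to 57466448 (4.49), 57469716 to 57470291 (4.34), 57473176 to 57473630 (4.64) and 57483119 to 57483436 (4.19). Their median width was 467 bp, against 751 bp over all members, and 1 of the 5 was 961 bp wide. Peaks of any size covered 10.7% of the gene's deep territory. The gap to the next peak was 1048 to 6880 bp.

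**Figure D4:**
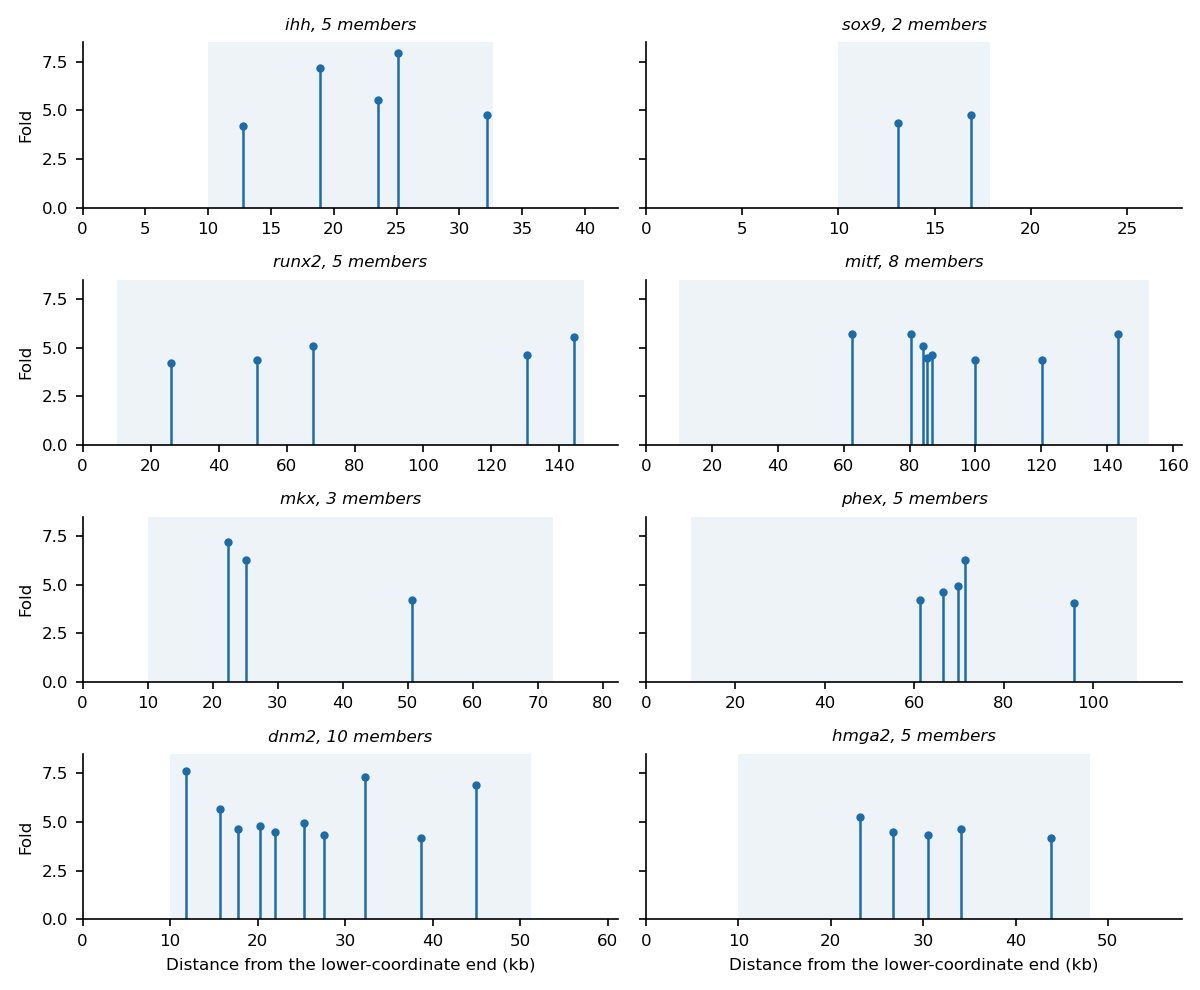
Fold of each member (y axis) along 8 genes (x axis, kb from the end with the lower coordinate; shaded, from the first to the last base of deep territory). The 5 members of ihh reach 7.94, the 10 of dnm2 reach 7.64, and the 5 of hmga2 stay between 4.19 and 5.24.

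Of the skeletal and connective tissue lists, bone and tendon genes had values near that of all genes, and cartilage and osteoclast genes lower ones. The interval of each was wide and included the value of all genes. All genes together had 3.17 members per 100 kb of deep territory (3.11 to 3.22). Of genes with deep territory 50.6% held a member, from 13.5% of those with under 10 kb to 92.2% at 100 to 200 kb. The shares of genes given for each list are not adjusted for that length. Of 11 bone and osteoblast genes with deep territory 6 held a member, against 50.6% of all genes, and they had 3.30 per 100 kb (2.21 to 4.74). The gene with most was pth1r, which encodes the parathyroid hormone receptor, with 12 of the 29 members over 208 kb and folds up to 6.14. Without pth1r the list had 2.53 per 100 kb. Phex, the phosphate-regulating endopeptidase gene, and runx2, the osteoblast regulator, had 5 each, and mef2c, a regulator of muscle and of chondrocyte hypertrophy, had 4. In phex, 4 of the 5 stood between 44563598 and 44574840 on chromosome 2, with folds of 4.19, 4.64, 4.94 and 6.29 in that order. In runx2 the folds were 4.19, 4.34, 5.09, 4.64 and 5.54 along chromosome 5, and the last 2, at 147639811 and 147653161, also lay inside supt3h. The density of runx2 was 0.617 of its surroundings and that of phex 1.93 times them.

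Cartilage genes held a member in 11 of 16, against 50.6% of all genes, at 2.31 per 100 kb (1.48 to 3.44). Col27a1, a fibrillar collagen gene of cartilage, had 6 members, all with folds of 4.64 or less. Xylt1, which starts glycosaminoglycan chains on proteoglycans, had 5, of which the one at 33180147 to 33181301 on chromosome 9 reached a fold of 7.19. Sox9, the chondrocyte master regulator, had 2 in just 7.86 kb of deep territory, at 30581758 to 30583108 (fold 4.34) and 30585966 to 30586480 (4.79) on chromosome 10, and cnmd, encoding chondromodulin, had 2 in 9.42 kb. Both territories are too short for a density to say much, as is that of nvl.

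Among tendon, perichondrium and connective tissue genes 16 of 19 held a member, against 50.6% of all genes. Of the 19, 11 have 50 kb or more of deep territory, and 87.7% of all such genes held a member. The density of this list was 3.22 per 100 kb (2.37 to 4.27). The metalloproteinase gene adamts12 had 12, the fibril-nucleating collagen gene col5a1 had 10 and col14a1 had 4. Mkx, a tendon transcription factor gene, had 3 on chromosome 6, at 24690858 to 24691514 (fold 7.19), 24693417 to 24694724 (6.29) and 24719571 to 24720112 (4.19). Of 10 osteoclast genes 2 have 50 kb or more of deep territory, and 3 held a member, at 2.82 per 100 kb (1.35 to 5.19). That value rested on mitf, a transcription factor gene of osteoclasts and pigment cells, with 8 members. Without mitf it was 0.947, since tcirg1, a proton pump subunit gene, and tnfrsf11a, which encodes the receptor RANK, had 1 each. In mitf, 5 of the 8 stood between 141595626 and 141616051 on chromosome 4. Nfatc1, the osteoclast master transcription factor gene, had no member in 104.8 kb, where its surroundings held 0.157 like peaks per 10 kb. Peaks of any size covered 2.43% of that territory.

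Hedgehog and primary cilium genes had the highest value of the 22 lists, 3.45 per 100 kb. Its interval is wide (2.39 to 4.83) and includes the 3.17 of all genes. A member lay in 12 of the 23 Hedgehog and cilium genes, against 50.6% of all genes. Dync2h1, the motor of retrograde transport in cilia, had 10, ihh had 5, the Hedgehog acyltransferase gene hhat had 4 and the co-receptor gene cdon had 3. Without dync2h1 the list had 2.99 per 100 kb. The highest of hhat, at 15621826 to 15623010 on chromosome 5, had a fold of 7.79 from 51 fragments. Genes of thyroid hormone and nuclear receptor action held a member in 23 of 30, at 3.21 per 100 kb (2.57 to 3.95). Of the 30, 20 have 50 kb or more of deep territory, and 87.7% of all such genes held a member. Without ncoa1, the gene with most members, the list had 2.67 per 100 kb. The coactivator gene ncoa1 had 20 members in 194 kb with folds up to 7.49, at 1.30 times its surroundings. The median of that ratio over the 737 genes with at least 5 members was 1.25. Next came rxra, the common receptor partner, with 8, ncoa3 with 7 and the retinoic acid receptor gene rarg with 6. Their ratios to surroundings were 0.641, 0.999 and 1.41. None was found in rorb or the glucocorticoid receptor gene nr3c1, which have 118 and 90.9 kb of deep territory.

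Of the other signalling lists, 1 had a value near that of all genes and 3 had lower values. The BMP and Notch intervals include the value of all genes. The shares of genes with a member stand beside 50.6% of all genes. Wnt pathway genes held a member in 23 of 40 (3.31 per 100 kb, 2.67 to 4.07), led by prickle2 with 19, the glypican gene gpc6 with 10, daam2 with 8 and gpc5 with 7. Without prickle2 the Wnt list had 2.84 per 100 kb. BMP and TGF-beta genes held one in 21 of 30 (2.43, 1.83 to 3.17), led by crim1 with 9, the ligand gene tgfb2 with 7, the receptor gene acvr2b with 6 and ltbp1 with 5. Notch genes held one in 9 of 19 (2.37, 1.47 to 3.62), with 6 in maml3, 3 each in notch1, notch3 and maml2, and none in notch2, dner or adam10. FGF and other receptor tyrosine kinase genes held one in 27 of 39 and were lower, at 2.44 (1.90 to 3.08), with 14 members in alk, 5 in fgf14, 5 in ntrk3 and 4 in ltk. Long genes with none included the Wnt receptor gene ror2, the agonist gene rspo2, the inhibitor gene nkd1, bmp5, pdgfc, ntrk2 and met. A gene with no member can still hold other peaks. Of the deep territory of dner, peaks of any size covered 25.2%, of rspo2 16.3%, of adam10 12.8% and of notch2 9.32%. In ror2, nkd1, bmp5, pdgfc, ntrk2 and met such peaks covered 2.24% to 7.14%.

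The synaptic adhesion, ion channel, axon guidance and cadherin genes had many members and long spans. Each of these 4 lists had a density below that of all genes. Density was also lower in long genes of any kind, at 34.2 per Mb in genes with under 10 kb of deep territory and 29.0 per Mb in those with 400 kb or more, and the comparison with all genes does not adjust for length. Synaptic and neural cell adhesion genes held 591 members in 44 of 48 genes, at 2.74 per 100 kb (2.53 to 2.97). Of the 48, 47 have 50 kb or more of deep territory, and 87.7% of all such genes held a member. Ion channel and receptor genes held 266 in 46 of 51 (2.78, 2.45 to 3.13), led by cacna2d3 with 34, cacna1c with 24, grm5 with 15 and grik1 with 13. Axon guidance genes held 152 in 31 of 36 (2.24, 1.90 to 2.62), with 28 in the netrin receptor gene dcc, 19 in robo1, 11 in epha6 and 8 in plxna1. Cadherin and protocadherin genes held 159 in 28 of 34 (2.04, 1.73 to 2.38), with 20 in fat3, 18 in cdh4, 17 in pcdh15 and 15 in pcdh7. Genes with 50 kb or more of deep territory numbered 50 in the ion channel list, 33 in axon guidance and 29 among cadherins. Of these, 45, 31 and 26 held a member, to be set beside the 87.7% of all such genes. No member lay in the long deep territories of kcnd2 (151 kb), kcnip1 (143 kb), gabrb2 (131 kb), cdh2 (114 kb), cdh6 (110 kb) or lrfn5 (98.5 kb). Peaks of any size covered 1.36% to 8.33% of each. These 4 lists and the receptor tyrosine kinases were the 5 of 22 whose interval lay below the value of all genes, and 0 lay above it. The intervals take each member as an independent count and leave out the spread between genes of a list. They are therefore too narrow to settle which lists differ from all genes.

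Skeletal muscle genes held a member in 13 of 20, against 50.6% of all genes, at 3.11 per 100 kb (2.40 to 3.95). The list was led by sgcd, a sarcoglycan gene, with 20, mef2d with 14, myocd with 10 and the satellite cell gene pax7 with 6. Myocd is chiefly a gene of heart and smooth muscle, and its 10 members count in the value of the list. Without sgcd the list had 2.61 per 100 kb. The giant sarcomere gene ttn had none in 172 kb, and myom2 none in 116 kb. Long genes of developmental transcription factors held one in 64 of 84 (2.98, 2.62 to 3.38), led by foxp1 with 29, npas3 with 15, tcf4 with 12 and tshz2 with 11. Of the 84, 51 have 50 kb or more of deep territory, and 87.7% of all such genes held a member. ADAM and matrix metalloproteinase genes held one in 29 of 36 (3.02, 2.42 to 3.72), led by adamts12 with 12, adamts9 with 9, adamtsl3 with 8 and adam12 with 7. Chromatin regulator genes held one in 34 of 53 (2.79, 2.26 to 3.40), led by kdm4b with 11 and hdac9 with 10, and genes of RNA processing and protein turnover in 39 of 47 (2.93, 2.49 to 3.44), of which 53 of 151 members lay in celf4. The shares of genes in these lists stand beside 50.6% of all genes and are not adjusted for length.

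Markers of other cell types that the dissected tissue can hold had little deep territory, 0.448 Mb for epidermis and 0.476 Mb for blood and endothelium. Epidermis genes held 7 members in 6 of 14 genes (1.56 per 100 kb, 0.628 to 3.22), with 2 in the integrin gene itgb4 and 1 in cdh1, which encodes E-cadherin. Blood and endothelial genes held 13 in 6 of 14 (2.73, 1.45 to 4.67), with 4 in erg, 3 in runx1, and 2 each in the leukocyte phosphatase gene ptprc and the endothelial gene esam. Both intervals are wide and include the value of all genes. The shares of 6 of 14 stand beside 50.6% of all genes. Less open chromatin and fewer cells of a type cannot be told apart in bulk tissue.

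Distance from chromosome ends moved with the lists as well. Over 10 Mb from chromosome ends, all genes had 2.78 members per 100 kb, Hedgehog genes 2.98, thyroid hormone and nuclear receptor genes 2.99 and bone genes 3.30. Those were the lists with the highest values there. Tendon genes had 2.78, skeletal muscle genes 2.59 and cartilage genes 2.31. With genes nearer the ends left out, Wnt genes had 2.43 in place of 3.31 and RNA processing genes 2.09 in place of 2.93. The bone value rests on 29 members, all in genes over 10 Mb from an end, and its interval of 2.21 to 4.74 includes the 2.78 of all genes. Of the 29, 12 lay in pth1r, 11.5 Mb from an end and at 0.953 times the density of its surroundings. Without pth1r the bone list had 2.53.

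**Figure D5:**
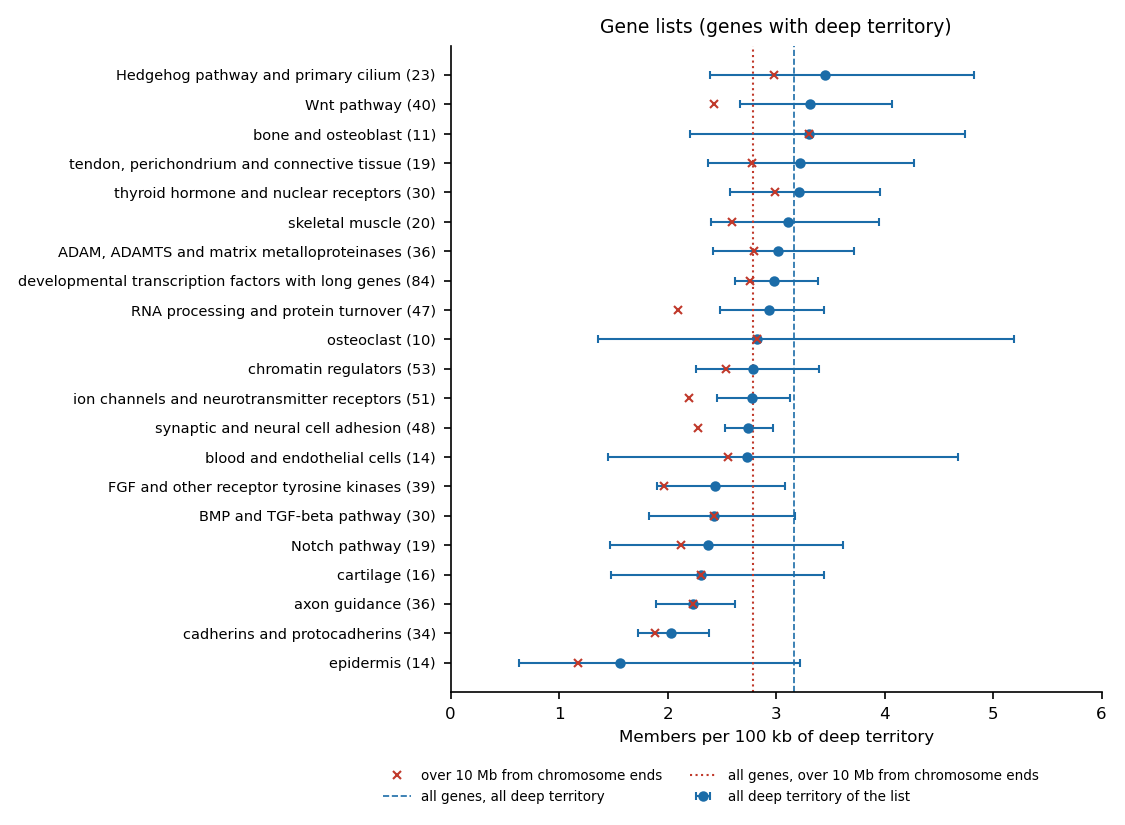
Members per 100 kb of deep territory (x axis) for 21 of the 22 gene lists, with the number of genes that have deep territory in brackets; circles and bars give the value and its exact Poisson 95% interval, and crosses the value over 10 Mb from chromosome ends. The dashed line marks all genes at 3.17 and the dotted line all genes over 10 Mb from chromosome ends at 2.78. Most intervals include the dashed line, and those of synaptic, ion channel, axon guidance, cadherin and receptor tyrosine kinase genes lie below it. The bars leave out the spread between genes of a list.

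Members sometimes formed runs. No runs of like peaks elsewhere are given beside these, so the numbers do not measure clustering beyond the members' density. Joined when neighbouring summits were at most 5 kb apart, 31.3% of members stood in runs of 2 or more, and there were 384 runs of at least 3 and 30 of at least 5. The longest had 8 members. One lay in mtus2, which encodes a microtubule-associated protein, at 154514641 to 154531279 on chromosome 2, with folds from 4.04 to 5.99, and the other was that of dnm2. Runs of 7 lay in ptprt, a receptor phosphatase gene, at 40036906 to 40048439 on chromosome 10, in mdga1, a neural adhesion gene, at 3747763 to 3772027 on chromosome 5, in garnl3 at 8777736 to 8797908 on chromosome 8, and in the stretch shared by LOC116407773 and tns1 at 85405430 to 85424249 on chromosome 9. The run in mdga1 had the highest folds of these, with a median of 6.44. The mtus2 run lay 26.5 Mb from a chromosome end, and the other 5 lay 3.75 to 15.1 Mb from one.

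Some members lay beside non-coding genes that sit deep inside coding genes. Within 1 kb of an end of such a gene there were 59 members, or 40.1 per Mb (30.5 to 51.7), against 31.6 per Mb over all deep territory. Long non-coding RNA genes accounted for 38 of them, at 39.6 per Mb (28.0 to 54.4), an interval that includes the value of all deep territory. MicroRNA genes accounted for 2, at 29.0 per Mb (3.52 to 105), an interval that also includes that value. One was the member in dnm2 beside mir199b. The other lay beside mir9407 in zmat4, at 33372027 to 33372329 on chromosome 7 with a fold of 4.04.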

How the data were processed

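ATAC-seq peak lists of 3 urostyle libraries, 1 per stage, were used as deposited. Per the submitters' processing notes the tools included Bowtie2, Picard, MACS2 and Genrich. Not given in the sources used here were their versions, the build, filters, peak settings, transposase shift and total reads. The deposited stage 65 list gives a fold (a ratio of summit to background) and −log10 p and q values of each peak. The deposited lists of stages 56 and 61 give a signal that is a peak area, and only their peak numbers were used. Up to a fold of 50, the stage 65 values fell on steps of 0.150, within 0.02 of a step, for 100% of peaks. With a pseudocount of 1 this gives a background pileup of 5.68, in the units called fragments here, the only depth known.

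Genes came from a RefSeq table of UCB_Xtro_10.0, which holds no strand, exons or introns, so a gene end is a start or a finish. The last stage 65 peak of each chromosome ended 1883 to 191444 bp beyond its last coding gene. No coordinate was converted, coordinates are those of the deposited list, 1-based, and no genome sequence was used here. Python 3.11.15, numpy 2.4.6, pandas 2.3.3, scipy 1.17.1 and matplotlib 3.10.9 were used, and the counting was tested on simulated data.

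The members and the lists were chosen with earlier results of these data known. The 22 lists hold 900 different genes, of which 863 matched the table, 8 by a synonym. Named were the 15 genes with most members, the 15 densest with at least 5, up to 4 genes with most members and up to 3 with 50 kb or more and no member per list, the highest member of the first 15 genes, and the longest runs. Genes ranked by the ratio to surroundings were added later. One list and 2 genes that this rule names are not reported here. With 1 library no test was made. Alternatives changed the fold, width, distance, chromosome ends, peak position, q value, merging, gene table, density rule, run gap and list makeup.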

Additional observations from a re-analysis of the deposited data

How the results depend on the processing

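With 1 library, 1 list and unknown read depth, all values describe that library. No paired analysis was possible because each stage has 1 library and no result comes from a test. For folds of 5 to 8 the members numbered 4039, 25.4% of genes held one, and the ratios to far territory and to gene ends were 0.906 and 0.465. For folds of 3 to 8 these were 37684, 74.0%, 1.03 and 0.594, so the ratio to far territory lay on the other side of 1. The percent of genes with a member, 50.6%, became 48.3% for folds of 4 to 6, 44.5% for widths under 1000 bp, 54.5% with no width limit, 46.8% over 5 kb and 56.8% over 20 kb from gene ends, 49.4% with the whole peak inside, 42.6% for a −log10 q of at least 10, and 49.4% without 10 Mb of chromosome ends. The ratio to gene ends became 0.503 for widths under 1000 bp, 0.465 over 20 kb and 0.441 without 10 Mb of ends, and was not computed for whole peaks. The ratio to far territory became 0.939 with no width limit and 0.916 without 10 Mb of ends. Of the 15 densest genes, 10 stayed per 10 kb of gene span, 1 with at least 10 members, 6 without 10 Mb of ends and 3 by ratio to surroundings. Runs of 3 or more numbered 54 at 2 kb and 870 at 10 kb. Without the gene with most members, 3 of 22 lists left their interval: osteoclast at 0.947, synaptic at 2.41 and RNA processing genes at 2.22 per 100 kb. Leaving out 10 Mb of ends moved 4 lists: synaptic to 2.28, ion channel to 2.19, Wnt to 2.43 and RNA processing to 2.09. The exclusion of 10 Mb and the ratio to surroundings were chosen after seeing the data. The cause of each move was not tested, beyond the number of peaks that each limit keeps.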
